A study of Mus musculus with 4 samples.

Results

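The cytosolic ribosomal protein genes of the mouse were followed through single cells of the spinal cord. They were taken as the gene symbols of the form Rpl or Rps with a number, with Rplp0, Rplp1, Rplp2 and Rpsa, that had at least 1000 unique molecular identifiers (UMIs, each standing for 1 captured RNA molecule) over all 4 libraries. Of 32285 measured genes 83 had such a symbol and 80 reached the limit, 32 of the small subunit and 48 of the large subunit. The members lie on 19 chromosomes, 4 of them on the X chromosome, and 3 are the less abundant paralogs Rpl7l1, Rpl22l1 and Rps27l. Just inside the limit was Rpl7l1 with 8294 UMIs, and outside it were Rpl39l with 363, Rpl3l with 66 and Rpl10l with 0. Fau, which encodes a ribosomal protein fused to a ubiquitin-like protein, has another symbol and is described among the translation partners.

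A ribosome joins the proteins of both subunits to ribosomal RNA in fixed proportions, so cells hold the messages of these genes at broadly coordinated levels. Many of these messages begin with a run of pyrimidines (C and T in the DNA), the terminal oligopyrimidine motif, through which the mTOR pathway and Larp1 govern their translation and stability. Some proteins also have roles of their own: the stalk proteins Rplp0, Rplp1 and Rplp2 recruit elongation factors, and Rps27a is made as a fusion with ubiquitin. In immune cells such as lymphocytes the family is known to take a large part of the mRNA, and maturing neutrophils are known for low synthesis of ribosomes.

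Transcript starts of the members were compared with those of all genes in the RefSeq annotation of GRCm38.p6, which lists 71 starts for 60 of the 80 members. The motif searched on the transcribed strand was a C at the annotated start followed by at least 4 bases that are each C or T. It was present at 13 member starts (18.3%) and at 823 of 32851 starts of all genes (2.51%). A run of 8 or more of C or T within 10 bases before to 15 bases after the start, which can overlap the first motif, was present at 23 member starts (32.4%) and 3119 of all starts (9.49%). The windows below, 15 bases before and 15 from the start, are shown for Rpl35 and Rpl38, whose levels differed most between the P301S libraries in macrophage-like cells, for Rps6 and Rps27, and for Rps9 and the 3 paralogs, which differed least or behaved apart. The run of pyrimidines from the start is in capitals where the first motif was found. The second motif is not marked, and the windows of Rps9 and Rpl22l1 also meet it. They lie at chr2:39005117-39005146 (minus strand, Rpl35), chr11:114668565-114668594 (plus, Rpl38), chr4:86857353-86857382 (minus, Rps6), chr3:90213634-90213663 (minus, Rps27), chr7:3704026-3704055 (plus, Rps9), chr3:28805493-28805522 (plus, Rpl22l1), chr9:66946071-66946100 (plus, Rps27l) and chr17:46782642-46782671 (minus, Rpl7l1).
Rpl35: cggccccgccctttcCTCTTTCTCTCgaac
Rpl38: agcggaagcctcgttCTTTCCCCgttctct
Rps6: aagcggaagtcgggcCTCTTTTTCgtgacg
Rps27: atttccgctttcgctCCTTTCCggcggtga
Rps9: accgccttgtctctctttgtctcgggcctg
Rpl22l1: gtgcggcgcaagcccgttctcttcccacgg
Rps27l: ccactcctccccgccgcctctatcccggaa
Rpl7l1: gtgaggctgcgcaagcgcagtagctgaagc
In these windows Rps27 has the first motif and its paralog Rps27l does not. Rpl41, not shown, came next after Rpl35 and Rpl38 in that difference and lacks the first motif. A link between either motif and the differences between libraries was not tested. A match is only a pattern of letters at an annotated start, and no match says only that the letters are not at that position.

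Cells came from perfused spinal cords, and each of the 4 libraries pooled the cords of 2 mice. The P301S line, a model of tauopathy, expresses human tau with a disease mutation. The promoter of the transgene is not given in the sources used here, and its RNA was not examined. Of the groups, P301S neg CD8 WT was negative for the transgene and 30 weeks old. The other 3 were homozygous for it: P301S hom CD8 WT, once 30 and once 33 weeks old, and P301S hom CD8 KO, a CD8 knockout 30 weeks old. All cords went through a tumour dissociation kit and magnetic removal of myelin, so the cells that remained are not the makeup of the cord. With 1 library per group there is no replicate spread, no test between groups was possible, and the intervals given are 95% intervals that cover counting error only. The transgenic CD8 WT library at 30 weeks is the shared partner of all 3 comparisons between libraries.

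The libraries held 36331214 to 43531426 UMIs over 5107 to 6433 barcodes, and 20191 cells were kept. Of the barcodes 44 occurred in more than 1 library, 35 of them among kept cells. Without the cells that carry these barcodes the macrophage-like shares were 9.36%, 14.41%, 14.08% and 14.02%, close to those with them. In T cell-like cells Cd8a had 44 UMIs in 36 cells of the P301S neg library, 67 in 52 cells and 68 in 75 cells of the 30- and 33-week P301S hom CD8 WT libraries, and 1 in 60 cells of the library labelled CD8 KO. Over all barcodes the library labelled CD8 KO nevertheless had 1400 Cd8a UMIs, against 58 to 88 in the others. Outside T cell-like cells RNA of the gene was thus higher, not lower, in the library of that label. Where in the gene these UMIs lie, and whether protein is made, was not examined. By Xist and Y-linked RNA, the P301S neg and the 33-week libraries held cells of both sexes, the P301S hom CD8 WT library at 30 weeks held 3723 female and 0 male cells, and 4 female against 3091 male cells were found in the library labelled CD8 KO. Sex and the knockout label therefore cannot be told apart. Classes of cells were named from marker genes after clustering without the ribosomal protein genes, and no cluster was named neuron-like.

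Within 20191 kept cells the 80 genes gave 17133942 of 153646246 UMIs, or 11.2%, and 36 of them were among the 100 genes with most UMIs. The median member stood at 1322 CPM (a gene's UMIs scaled by those of all genes). Since UMIs were counted at the 3′ end, CPM has no length term, but capture differs between transcripts, so the order below is of captured RNA. Rps24 was highest (3134 CPM, ENSMUSG00000025290, chr14:24487125-24496959 on the plus strand), with 2358, 3578, 3208 and 3374 CPM in P301S neg, P301S hom aged 30 weeks, P301S hom aged 33 weeks and P301S hom CD8 KO, the order of libraries kept hereafter. Also among the 5 highest were the stalk protein gene Rplp1 (2733 CPM, chr9:61913284-61914542, minus), Rpl13 (2727 CPM, chr8:123102350-123105244, plus) and Rpl23 (2587 CPM, chr11:97777527-97782437, minus). Among the 5 lowest were the paralogs Rpl7l1 (52.5 CPM, chr17:46773907-46782672, minus) and Rps27l (175 CPM, chr9:66946086-66949516, plus), Rpl31 (294 CPM, chr1:39367842-39371911, plus) and the paralog Rpl22l1 (371 CPM, chr3:28805436-28807424, plus). Without the 3 paralogs the family spanned a 10.7-fold range of captured RNA. Reads that could come from near-identical processed copies of these genes were not examined, which leaves single members uncertain to that extent. Rpl7l1 was highest in the P301S neg library, at 58.1 CPM against 49.1, 49.2 and 53.1 CPM, whereas Rplp1 stood at 2063 CPM there and at 2951, 2778 and 3114 CPM in the 3 transgenic libraries.

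Cell classes differed widely in the summed share of the family, from under 5% to over 30% of UMIs. T cell-like cells had the highest share in each of the 3 libraries with at least 50 of them, at 32.2%, 27.5% and 25.9% of all their UMIs in the 30-week library, the 33-week library and the one labelled CD8 KO. The second of these values was 29.11% without 1 cell whose barcode another library also held. The 36 T cell-like cells of the P301S neg library stood at 35.4%, and NK cell-like cells, at most 21 in a library, at 24.5% to 26.0%. Other blood cells followed, with monocyte-like cells at 16.8%, 17.2%, 17.8% and 18.1% (47 cells in the last library) and B cell-like cells at 18.7%, 14.8%, 16.3% and 16.0%. Cells of the vessels and of the lining of the central canal were low and steady: endothelial-like cells had 8.40%, 8.79%, 8.49% and 8.88%, and ependymal-like cells 6.01%, 6.05%, 6.21% and 6.22%. Neutrophil-like cells were the lowest class of at least 50 cells in all 4 libraries, at 4.50%, 4.68%, 3.67% and 3.44%.

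**Figure D1:**
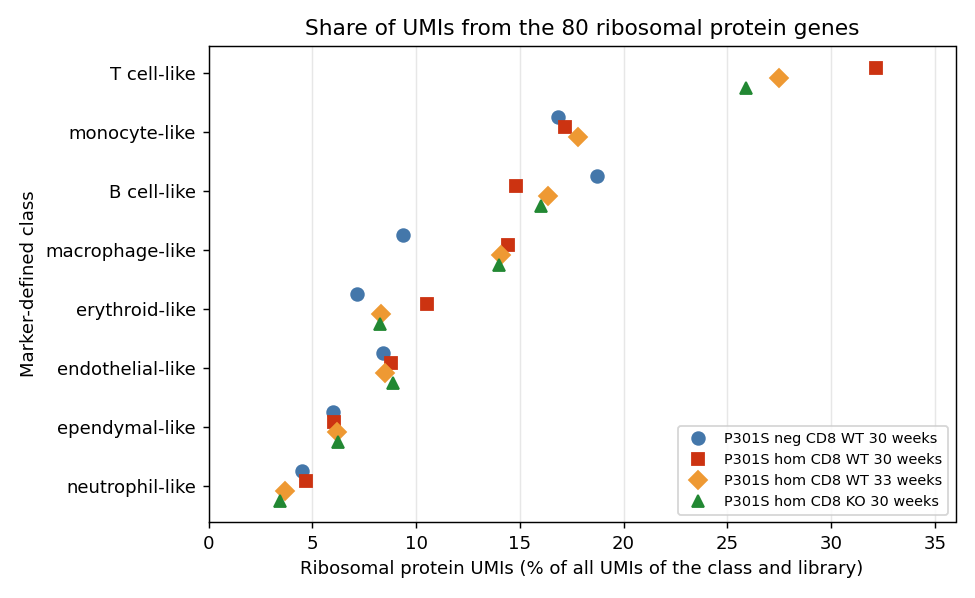
Share of all UMIs that came from the 80 ribosomal protein genes (horizontal axis, percent) in each marker-defined class (vertical axis), 1 point per library with at least 50 cells of the class. T cell-like cells lie at 25.9% to 32.2% and neutrophil-like cells at 3.44% to 4.68%, and macrophage-like cells are the class of over 1000 cells in which the P301S neg library (9.37%) stands apart from the others (14.02% to 14.4%).

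Within a lineage the share differed between clusters. Neutrophil-like cluster 10, led by Camp and Ngp of intermediate neutrophils and with the precursor gene Elane among its leading genes, had 7.04%, 7.32%, 5.48% and 4.63% (14 cells in the last library). Of the named neutrophil-like clusters it scored highest on precursor markers (5.68 on the log2 scale) and is called early here, although it scored higher still on intermediate ones (9.37). Cluster 5, led by Retnlg and S100a8, had 3.31%, 2.72%, 2.99% and 3.05%. B cell-like cluster 16, led by Igkc, H2-Aa and Cd74, had 25.3%, 24.5%, 25.2% and 22.9%, against 17.7%, 11.96%, 11.8% and 13.5% in cluster 3, which holds Vpreb3, Igha and Jchain among its leading genes. In erythroid-like cells the share moved with globin RNA, from the haemoglobin genes: globins took 47.3% to 60.3% of UMIs, the ribosomal share was 7.17%, 10.51%, 8.32% and 8.26%, and without globins in the total it was 18.1%, 19.9%, 16.7% and 17.5%. The late erythroid-like clusters 4 and 24, with 72.3% to 90.5% globin, were at 0.532% to 2.43%.

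Macrophage-like cells, which carry the microglial genes C1qa and Trem2, showed the widest gap between libraries among the large classes. Their share was 9.37% (interval 9.34% to 9.39%, 1329 cells) in the P301S neg library, 14.4% in P301S hom at 30 weeks (interval 14.40% to 14.43%, 1945 cells), 14.1% at 33 weeks (1592 cells) and 14.02% in the library labelled CD8 KO (2333 cells). The 3 transgenic libraries thus lay close together and the nontransgenic one below them. Per cell the median share was 8.30%, 14.3%, 13.9% and 13.6%, and the median cell held 348, 1538, 1171 and 1332 ribosomal protein UMIs. Cells of the P301S neg library were also shallower, with a median of 4985 UMIs against 10418, 8170 and 9437, and the part of this depth in the share was not tested.

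The family differed between clusters of macrophage-like cells, and the libraries held these clusters in different proportions. Cluster 14, led by homeostatic microglial genes such as P2ry12 and Tmem119, made up 72.9% of the class in the P301S neg library and 8.28%, 12.4% and 11.6% in the others, and had a low share in all of them: 8.71%, 9.27%, 10.3% and 9.65%. Cluster 12, with Ccl3 and Il1b among its leading genes, had 9.70% in the 56 cells of the P301S neg library and 15.1%, 14.6% and 14.2% in the transgenic ones, where it made up 32.0% to 36.3% of the class. Cluster 13, led by Spp1 with Lpl (14.3%, 13.5% and 13.9%), and cluster 29, led by Spp1, Gpnmb and Mmp12 (14.5%, 14.4% and 14.7%), held at most 3 cells each of the P301S neg library. Cluster 11 was different: it had the fewest UMIs per cell of these clusters (medians of 1037, 2809, 2149.5 and 2670) and the highest share, 16.2%, 19.8%, 17.9% and 20.1%. Since it made up 19.6% of the class in the P301S neg library and 4.88% to 7.04% in the others, leaving it out moved the class share most there, and the shares were then 8.96%, 14.34%, 14% and 13.9%.

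**Figure D2:**
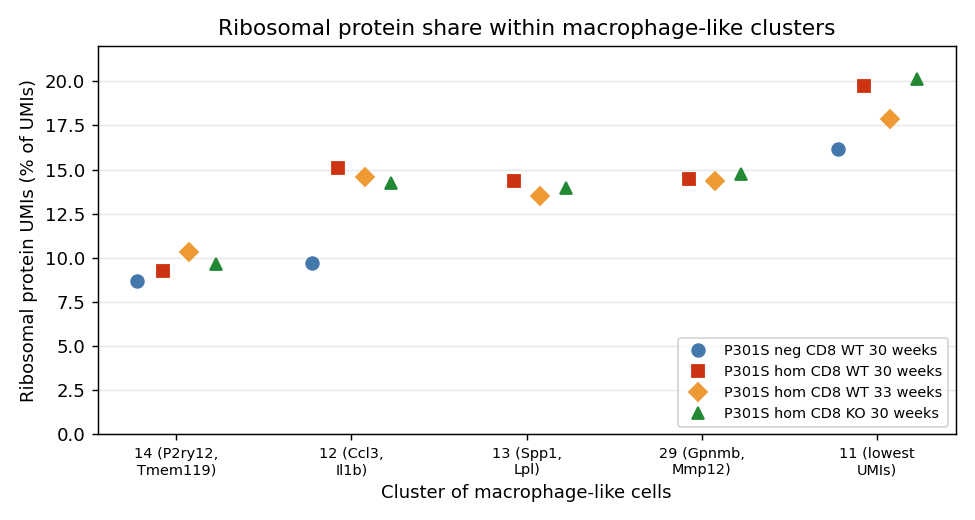
Share of UMIs from the ribosomal protein genes (vertical axis, percent) in each cluster of macrophage-like cells (horizontal axis, with leading genes), 1 point per library with at least 50 cells of the cluster. The homeostatic cluster 14 lies at 8.71% to 10.3% in every library, while cluster 12 is at 9.70% in the P301S neg library and 14.2% to 15.1% in the transgenic libraries.

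Set against cluster 14 of the same library, most members were higher in the other clusters, to different extents. In cluster 12 the median member was 0.69 higher on the log2 scale in P301S hom CD8 WT aged 30 weeks, where 65 of 80 members and 10.0% of all genes were at least 1.5-fold higher. At 33 weeks it was 0.51 (17 members, 7.71% of genes), in the library labelled CD8 KO 0.55 (29 members, 8.39% of genes) and in the P301S neg library 0.16 (0 members, 14.6% of genes). In cluster 13 the medians were 0.64, 0.41 and 0.53 in the 3 transgenic libraries, with 49, 13 and 32 members past 1.5-fold beside 12.6%, 12.3% and 11.1% of genes. In cluster 29 they were 0.65, 0.49 and 0.61, with 48, 26 and 44 members beside 13.9%, 12.6% and 13% of genes. Cluster 11, of low UMI count, gave 0.88, 1.09, 0.80 and 1.05 in the 4 libraries, with 76, 78, 71 and 78 members beside 13.9%, 13.8%, 13.4% and 12.3% of genes. Rps27l had the largest or the next largest log2 ratio of all members in cluster 29, at 1.27, 1.20 and 1.04, whereas Rpl22l1 (0.13, -0.06 and 0.17) stayed near its level in cluster 14 and Rpl7l1 lay below it (-0.28, -0.39 and -0.55).

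The first comparison asks how the family differed with the P301S transgene at 30 weeks. In macrophage-like cells the summed share was 1.54-fold higher (interval 1.535 to 1.543) in the transgenic library. The median log2 ratio of the 80 members was 0.61, with quartiles of 0.48 and 0.76, and 79 members lay above 0. At least 1.5-fold higher were 44 members, where 11.4% of all 11766 measured genes were, and 1 member was as much lower, where 36.6% of genes were. The median of all genes was -0.38, and scaling by trimmed means (TMM), which shifts the scale by 0.43, put the members' median at 1.05 with 78 members past 1.5-fold higher and 0 lower. The shares of all genes given here and below are without that shift, and none was counted after TMM scaling.

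The largest ratios among single members belonged to genes of short large-subunit proteins. Rpl35 had 319 CPM in the P301S neg library and 748, 634 and 726 CPM in the others, a 2.35-fold difference between the first pair (interval 2.24 to 2.46). Rpl38 had 633, 1346, 1147 and 1289 CPM (2.13-fold), and Rpl41, the shortest of all members, had 931, 1975, 1745 and 1994 CPM (2.12-fold). All 3 transgenic libraries were above the nontransgenic one for each of these. At the other end Rps9 had 1930, 2174, 2439 and 2192 CPM (1.13-fold) and Rpl22l1 had 328, 363, 343 and 402 CPM (1.11-fold). Rpl7l1, a homologue of Rpl7 known from ribosome assembly, was the 1 member at least 1.5-fold lower: it stood at 74.9 CPM in P301S neg and 47.3 in P301S hom, a log2 difference of -0.66, and the interval of the fold was 0.565 to 0.706. Rps27l, a p53-responsive paralog of Rps27, had 86.8, 162, 164 and 152 CPM and lay above the median member, with a log2 ratio of 0.90.

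In the homeostatic cluster 14 alone the median member differed by 0.11 and 0 members passed 1.5-fold, beside 9.23% of genes higher and 8.23% lower. Cluster 12 gave 0.63 with 45 members higher and 1 lower, from 56 cells in the P301S neg library, beside 12.6% of genes higher and 30.0% lower. Cluster 11 gave 0.32 with 8 members higher and 1 lower, beside 11.8% and 23.0% of genes. Female cells alone gave 0.59 for the class. The gap in the class thus was not the same in its clusters, and the difference between clusters cannot be tested with 1 library per group.

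**Figure D3:**
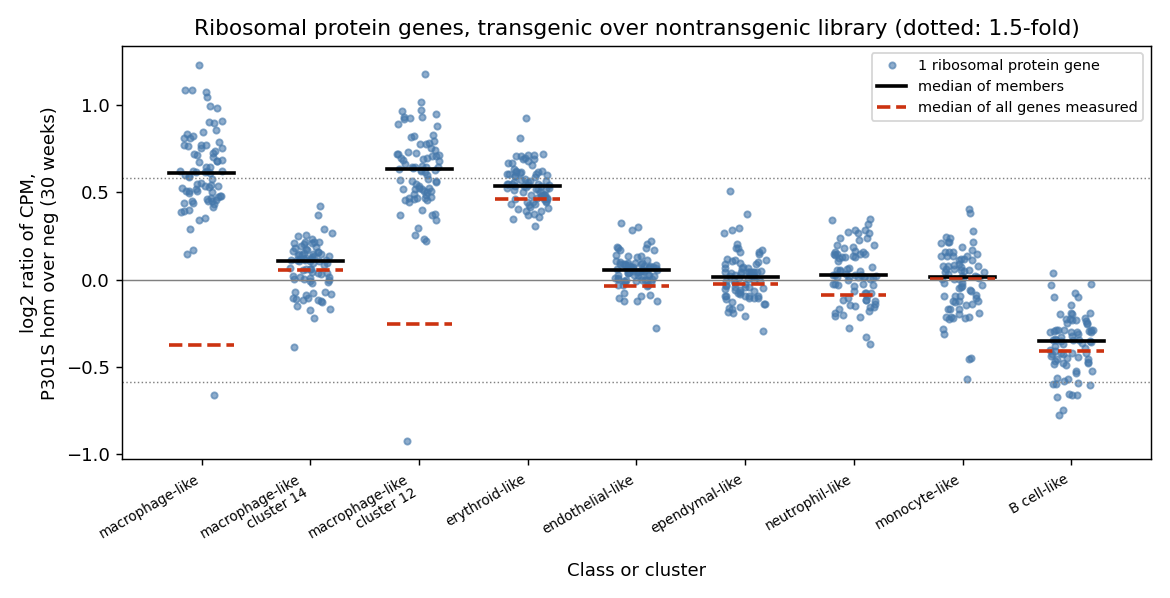
log2 ratio of CPM in P301S hom over P301S neg at 30 weeks (vertical axis) for each of the 80 ribosomal protein genes (points) by class or macrophage-like cluster (horizontal axis), with medians and dotted lines at 1.5-fold. Members of macrophage-like cells centre on 0.61, those of endothelial-like cells on 0.06 and those of the homeostatic cluster 14 on 0.11.

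In endothelial-like, ependymal-like, monocyte-like and neutrophil-like cells the members were nearly level in the transgene comparison. Their medians were 0.06, 0.01, 0.01 and 0.03, and 0 members passed 1.5-fold in any of them. Of all genes 4.72%, 5.29%, 8.03% and 4.53% were higher in these classes and 6.09%, 7.08%, 11.2% and 11.4% lower. The neutrophil-like count became 6 lower in female cells alone, and neutrophil-like cluster 5 had a median of -0.30 with 18 of 79 members lower beside 23.8% of genes. In endothelial-like cells the largest ratios belonged to Rpl35 (346 and 433 CPM, 1.251-fold), Rps28 (408 and 503, 1.23-fold) and Rps21 (1096 and 1332, 1.22-fold), and the smallest to Rps27l (195 and 161, 0.825-fold), Rpl7l1 (63.5 and 58.3, 0.918-fold) and Rps18 (668 and 613, 0.919-fold). Rpl35 was thus at the top in both classes, at different sizes. Erythroid-like cells had 28 members higher and 0 lower, but 36.1% of all genes were also higher there and 2.36% lower, the median gene (0.46) was close to the median member (0.54), and 0 members passed after TMM scaling or without globins in the total. The 28 became 12 without cells whose barcode another library also held, 8 in female cells alone, 45 with at most 5% mitochondrial UMIs and 77 at Leiden resolution 2.0. The clusters differed: 78 of 79 members were higher in cluster 24 (median 1.91) beside 74.5% of genes, 23 of 77 in cluster 4 (0.34) beside 24.8%, and 0 of 80 in cluster 0 (0.17) beside 10.9%. B cell-like cells had 10 members lower beside 33.7% of genes and 0 higher beside 4.82%, with medians of -0.35 for members and -0.41 for genes, and 0 members after TMM scaling or at Leiden resolution 2.0, 6 without globins in the total and 26 with at most 5% mitochondrial UMIs. For none of the alternatives given for the neutrophil-like, erythroid-like and B cell-like classes was the share of all genes counted, so these member counts have no background beside them. By cluster the B cell-like members had a median of -0.57 in cluster 3, where the median gene was at -0.48. There 36 of 80 members were lower, near the share of all genes (41.4%). In cluster 16 the median member was at -0.03 and the median gene at -0.12.

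The second comparison sets the library labelled CD8 KO against CD8 WT in transgenic mice at 30 weeks, the former from male and the latter from female mice. In macrophage-like cells the family was nearly level, with shares of 14.02% and 14.4% and a median log2 ratio of -0.04. No member was 1.5-fold higher or lower, where 4.27% of genes were higher and 2.71% lower. The highest were Rpl22l1 (363 CPM in WT and 402 in the library labelled CD8 KO, 1.11-fold), Rpl7l1 (1.08-fold) and Rpl37a (1.02-fold), and the lowest Rps2 (0.932-fold), Rpl15 (0.934-fold) and Rps27l (0.935-fold). Endothelial-like cells had a median of 0.02, 0 members past 1.5-fold in either direction beside 2.86% of genes higher and 3.65% lower, and a range from Rpl11 (0.955-fold), Rpl21 (0.968-fold) and Rpl27a (0.970-fold) to Rps28 (1.08-fold), Rpl10 and Rpl22l1 (both 1.09-fold). Rpl22l1 was thus among the highest in both classes.

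In T cell-like cells, the class that CD8 concerns, the share was 32.2% in 52 cells and 25.9% in 60. The median member differed by -0.27 while the median gene differed by 0.20, and 3 members were 1.5-fold lower beside 11.1% of genes. The count was 26 after TMM scaling and 1 at Leiden resolution 2.0, where the share of all genes was not counted. Among the 3 were Rps24 (13328 and 8831 CPM) and Rps21 (4783 and 3186 CPM). Rps27l went the other way, with 35 UMIs (174 CPM) and 90 UMIs (397 CPM), 2.26-fold higher (interval 1.53 to 3.47), and was the 1 member past 1.5-fold higher beside 28.1% of genes. Cd8b1, a marker of CD8 T cells, had 92 and 48 UMIs there and Cd3e 180 and 193, so the makeup of the class differed too. A cluster with Dntt and Pclaf, genes of immature and of dividing cells, among its leading genes held 1 of the 52 cells and 5.65% of their UMIs at 30 weeks, against 17 of the 60 cells and 45.7% of UMIs in the library labelled CD8 KO. The part of makeup in the result was not tested. Neutrophil-like cells had 0 members higher beside 17.9% of genes, and 27 lower beside 11.9%. The median member was at -0.43 and the median gene at 0.11, and 46 members were lower after TMM scaling. The 27 became 0 with at least 1000 UMIs per cell, with at most 5% mitochondrial UMIs or with ribosomal protein genes allowed in the clustering, and 6 with predicted doublets kept. Under these alternatives and TMM scaling the share of all genes was not counted. The clustering that allowed ribosomal protein genes selected 0 of them among its variable genes, so it does not show what using them would change. Rpl10a was among the lowest, with 319 and 135 CPM. Within neutrophil-like cluster 9, which holds 333 and 100 of these cells, the median was 0.00, and in cluster 5 it was 0.17. The early cluster 10 had 81 and 14 cells.

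The third comparison sets 33 against 30 weeks in transgenic CD8 WT mice. Macrophage-like cells had a median log2 ratio of -0.02 and endothelial-like cells -0.04, with 0 members past 1.5-fold in either class, where 3.14% and 2.86% of genes were higher and 2.79% and 5.05% lower. In macrophage-like cells Rps9 (2174 and 2439 CPM, 1.12-fold), Rpl17 and Rps6 (both 1.09-fold) were highest, and Rpl37 (1778 and 1472 CPM, 0.828-fold), Rpl35 (0.848-fold) and Rpl38 (0.852-fold) lowest. In endothelial-like cells Rpl5 (1.09-fold), Rps6 (1.08-fold) and Rps14 (1.07-fold) were highest, and Rpl38 (1417 and 1146 CPM, 0.809-fold), Rpl35 (0.824-fold) and Rpl39 (0.832-fold) lowest. Rpl35 and Rpl38 were thus low in both classes. Neutrophil-like cells had 0 members higher beside 8.57% of genes, 14 lower beside 9.75% and a median of -0.37, against 0.02 for all genes. The 14 became 1 under each of the first 3 of those alternatives and 7 in female cells alone, again without a count over all genes. Within their clusters the median was -0.44 in cluster 10, -0.17 in cluster 9 and 0.12 in cluster 5. T cell-like cells had a median of -0.21 (-0.13 without the cell of the shared barcode), and beside 11.4% of genes higher and 12.6% lower Rpl7l1 was the 1 member past 1.5-fold, on 6 and 17 UMIs (ratio 2.13, interval 0.845 to 6.95).

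In some classes the members low at 33 weeks share a short coding sequence, a pattern noticed after the values were seen. Across the members of a class, Pearson's r between the log2 ratio of 33 over 30 weeks and the log2 coding length was 0.62 in macrophage-like, 0.66 in endothelial-like, 0.55 in ependymal-like and 0.45 in erythroid-like cells. It was 0.40 in T cell-like (78 members), 0.33 in B cell-like (79 members), 0.20 in monocyte-like (79 members) and 0.06 in neutrophil-like cells. These are correlations over at most 80 genes of the same libraries, which are not independent replicates. The 10 shortest members, from Rpl41 (75 nt) and Rpl39 (153 nt) to Rpl37, had medians of -0.17, -0.20 and -0.12 in macrophage-like, endothelial-like and ependymal-like cells, and 9, 10 and 10 of them lay below the median member. The 10 longest, led by Rpl4 (1257 nt) and Rpl3 (1209 nt), had medians of 0.00, -0.01 and 0.06. Neutrophil-like cells, which had 14 members lower at 33 weeks, did not share the pattern: the 10 shortest were at -0.36 and the 10 longest at -0.42, and 5 of the shortest lay below the median member. Length also went with the transgene ratio of other genes in macrophage-like cells. Their medians were 0.51 for 121 transcripts under 600 nt, 0.21 for 512 from there to 1000 nt, -0.20 for 2124 from there to 2000 nt, -0.41 for 3627 from there to 4000 nt and -0.43 for 2603 longer ones. The members in the first 3 of these length ranges had medians of 0.61, 0.61 and 0.63. Against log2 coding length, however, the members' transgene ratios fell too, with Pearson's r of -0.40. The 10 members of shortest coding sequence had a median of 0.79 and the 10 longest 0.51. Among transcripts under 600 nt 46.3% of the other genes and 53.9% of the 26 members were at least 1.5-fold higher, so at that length the members lay near the other genes, and between 1000 and 2000 nt above them. In other classes the members' r for the transgene ratio was -0.41 in ependymal-like, -0.31 in B cell-like and -0.20 in endothelial-like cells. It was -0.04 in erythroid-like, 0.08 in monocyte-like and 0.07 in neutrophil-like cells. The transgenic CD8 WT library at 30 weeks is the numerator of this ratio and the denominator of the 33-week ratio, so the trends with length in both are not independent.

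**Figure D4:**
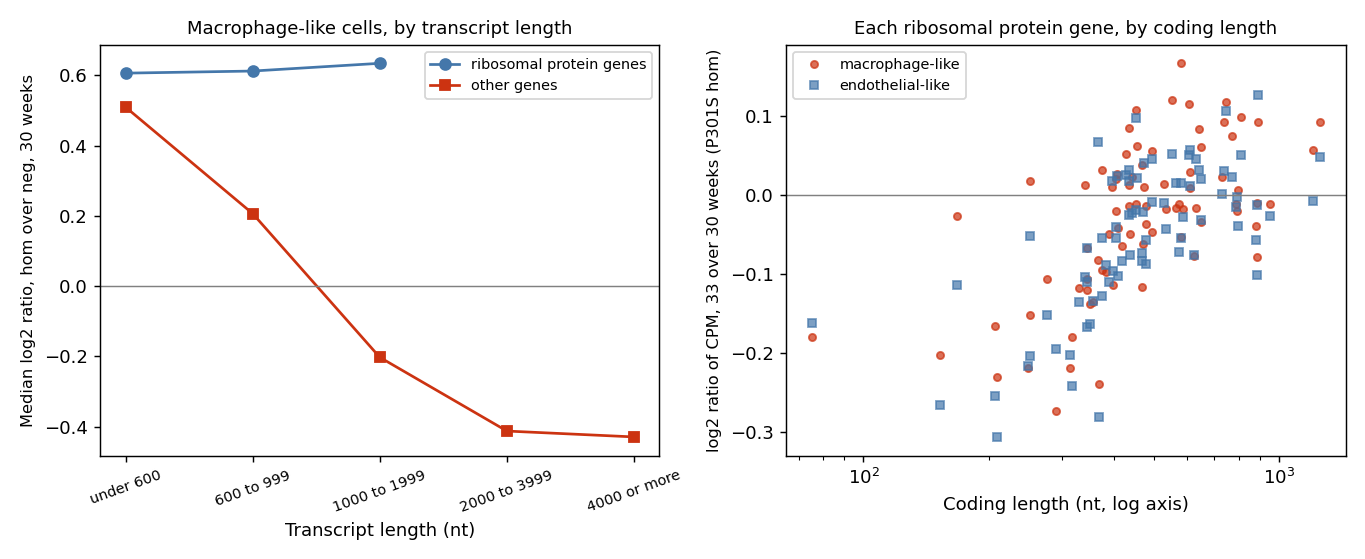
Left, median log2 ratio of P301S hom over P301S neg at 30 weeks in macrophage-like cells (vertical axis) by transcript length in nt (horizontal axis) for ribosomal protein genes and for other genes. Right, log2 ratio of 33 over 30 weeks (vertical axis) against coding length in nt (log horizontal axis), 1 point per ribosomal protein gene in macrophage-like and in endothelial-like cells. Other genes fall from 0.51 to -0.43 with transcript length. Members, shown in the shorter ranges only, lie at 0.61 to 0.63, although by coding length (not shown on the left) their ratio falls too (r = -0.40). The 10 shortest members have lower medians at 33 weeks (-0.17 and -0.20 in macrophage-like and endothelial-like cells) than the 10 longest (0.00 and -0.01).

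Most members kept 1 pattern over cell classes. Over 30 pairs of class and library the median Pearson's r between members of log2(CPM + 5) was 0.92, a description over pairs that share libraries and depth. The least alike to the rest were Rpl7l1 (median r 0.43), Rps27l (0.60), Rpl22l1 (0.72) and Rps27a (0.75). After removing each gene's median over classes and each class's median over members, the typical departure of a member in a class was 0.17 on the log2 scale and 95% lay under 0.67. Of 640 pairs of member and class, 2 departed by at least 1 with the same sign in every library that held the class, Rpl22l1 in ependymal-like cells and Rps27a in neutrophil-like cells, where 11% of pairs did over all genes.

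Rpl22l1, a paralog of the RNA-binding large-subunit protein gene Rpl22, was above the family in ependymal-like cells by 1.52, 1.66, 1.44 and 1.36 in the 4 libraries. Its CPM there was 601, 573, 523 and 564, against 317, 297, 311 and 325 in endothelial-like and 150, 182, 116 and 115 in neutrophil-like cells. Ependymal-like cells line the central canal and have a low ribosomal share, yet of the classes with at least 50 cells T cell-like cells alone were above them for this gene in every such library, with 811, 615 and 815 CPM. Rpl22 itself had 414, 414, 429 and 440 CPM in ependymal-like cells, fewer than Rpl22l1 in each library, and 667, 711, 668 and 734 CPM in endothelial-like cells, more than Rpl22l1. The order of the pair was thus turned between these classes in all 4 libraries. In pattern over classes Rpl22l1 was most like Rpl41 (r = 0.86), Rpl5 (0.86) and Rpl3 (0.85), and least like Rps27a (0.25).

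Rps27a, the fusion of a ribosomal protein with ubiquitin (ENSMUSG00000020460, chr11:29545846-29548109, minus strand), was above the family in neutrophil-like cells by 1.34, 1.41, 1.58 and 1.74. It had 2147, 2513, 2125 and 2170 CPM there, more than in endothelial-like (1648, 1805, 1715 and 1753) or ependymal-like cells (1033, 1097, 1139 and 1159), although the summed family was lowest in neutrophils. Over all kept cells Rps27a had 1928, 2844, 2551 and 2564 CPM, which is more than in neutrophil-like cells in each transgenic library and less in P301S neg. The departure is thus relative to the family. It made up 4.77%, 5.37%, 5.78% and 6.31% of all ribosomal protein UMIs of neutrophil-like cells and 1.72% to 1.86% of those of ependymal-like cells. Within the lineage the Rps27a part was 3.38% to 4.13% in the early cluster 10, 6.08% to 6.73% in cluster 9 and 7.65% to 10.26% in cluster 5. The Rps27a part was thus smallest in the early cluster, where the family's share was highest.

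**Figure D5:**
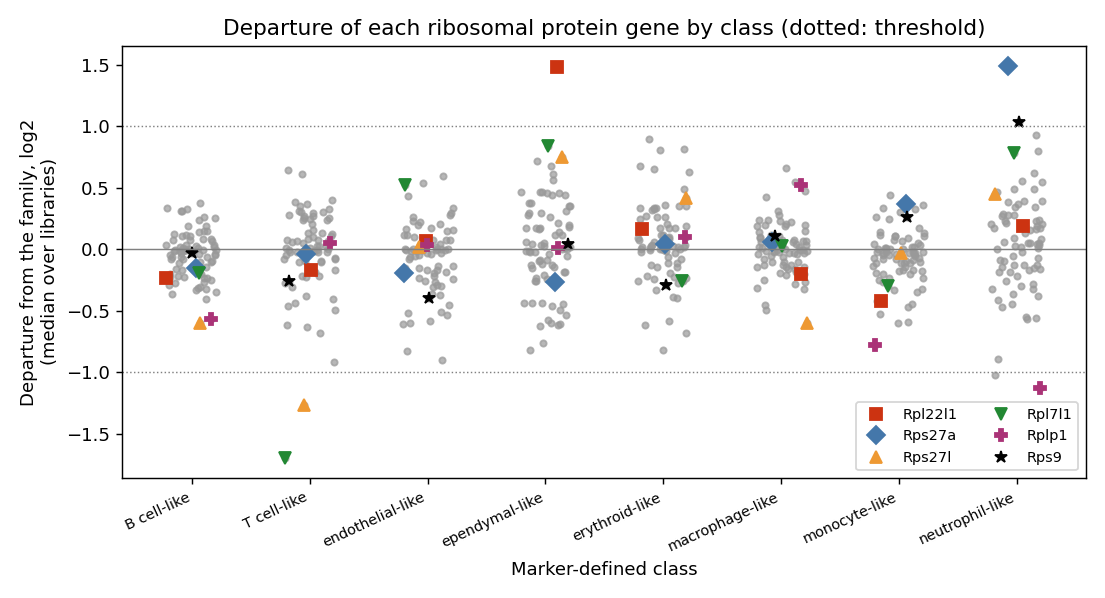
Departure of each ribosomal protein gene from the family in log2 units, as the median over libraries (vertical axis), by marker-defined class (horizontal axis), 1 point per gene, with dotted lines at 1 and -1. Rpl22l1 in ependymal-like cells (1.48) and Rps27a in neutrophil-like cells (1.49) are marked. Other points past a line, such as Rpl7l1 in T cell-like cells (-1.70), did not pass it in every library.

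Near the limit, again in neutrophil-like cells, stood Rplp1 (median departure -1.12), Rps9 (1.04) and Rpl12 (-1.02). Of the stalk genes, Rplp1 had 429, 332, 297 and 313 CPM in neutrophil-like cells against 3283, 4017, 4054 and 4036 CPM in macrophage-like cells, while Rplp0 had 821, 835, 654 and 559 against 1534, 2400, 2382 and 2380, and Rplp2 had 432, 433, 298 and 372 against 813, 1253, 1164 and 1275. Members of 1 stalk therefore did not keep 1 ratio: Rplp1 exceeded Rplp0 in macrophage-like cells of every library and fell short of it in neutrophil-like cells of every library. Rplp0 lay below the family in endothelial-like cells (-0.82) and above it in erythroid-like cells (0.81). Rpsa, which is also known as the laminin receptor, lay below the family in endothelial-like cells (-0.90), with 1041, 1110, 1101 and 1128 CPM. Rps9, in neutrophil-like cells, had 1293, 1067, 1318 and 1139 CPM and went from 1.32% to 2.14% of the family's UMIs in cluster 10 to 5.48% to 6.77% in cluster 5, as Rps27a did.

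The paralogs differed in where they were high. Rps27l was highest in monocyte-like cells among the 8 classes compared (375, 273 and 307 CPM in the first 3 libraries) and low in neutrophil-like cells (87.8, 96.1, 73.4 and 88.2 CPM). The library labelled CD8 KO held too few monocyte-like cells (47) for this comparison, and its T cell-like value, given above, was higher than these. The 3 members most like Rps27l in pattern included Rpl41 (r = 0.80) and Rpl31 (0.75). Rpl7l1 was low throughout, with 47.3 to 74.9 CPM in macrophage-like cells of the first pair of libraries, 58.3 to 63.5 CPM in endothelial-like and 22.1 to 31.8 CPM in neutrophil-like cells. Rpl39l, a paralog known from the testis and outside the limit, had 1.44, 2.91, 3.92 and 7.91 CPM in macrophage-like cells and 0.307 to 0.904 CPM in endothelial-like cells. Rpl3l, a paralog known from striated muscle, had 2.41 to 6.30 CPM in neutrophil-like cells.

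The X-linked members Rpl10, Rpl36a, Rpl39 and Rps4x were compared between male and female cells of the same library where both sexes had at least 50 cells. In macrophage-like cells the family's share was 8.65% in male and 9.39% in female cells of the P301S neg library and 14.4% and 13.4% of the 33-week library, a difference of opposite sign. In endothelial-like cells it was 8.32% and 8.41%, and 8.44% and 8.47%. In ependymal-like cells of the P301S neg library, with 66 male and 52 female cells, it was 5.60% and 6.53%. In these 5 pairs 0 members differed 1.5-fold between the sexes, beside 14.1% and 8.03% of all genes in macrophage-like, 14.8% and 9.66% in endothelial-like and 18.9% in ependymal-like cells. Rps4x had 2114 CPM in male and 2352 CPM in female macrophage-like cells of the P301S neg library and 3297 and 3207 CPM of the 33-week library. In macrophage-like and endothelial-like cells of both libraries the 4 X-linked genes lay within 0.08 of the median member on the log2 scale, with the largest deviation for Rpl36a (-0.08) in endothelial-like cells of the P301S neg library. In the smaller ependymal-like class Rpl10 lay 0.20 above the median member, and Rpl39 (-0.11), Rpl36a (-0.09) and Rps4x (-0.06) below it.

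Other genes of the pathway were read as lists, chosen with earlier results of these data known. Translation partners (elongation and initiation factors and nascent-chain proteins) followed the family: their summed share in macrophage-like cells was 1.62%, 2.34%, 2.32% and 2.25%, and in the transgene comparison 6 of 16 were 1.5-fold higher and 0 lower, with a median of 0.57. The elongation factor gene Eef1a1 had 8814 CPM in T cell-like and 792 CPM in neutrophil-like cells (medians over libraries), and Rack1, a small-subunit scaffold, 1822 and 177 CPM. Fau reached 6010 CPM in monocyte-like cells. Ribosome biogenesis genes did not follow: 2 of 20 were higher and 4 lower in macrophage-like cells with a median of -0.38, beside -0.38 for all genes, and their summed share was 0.162%, 0.166%, 0.164% and 0.164%. They were lowest in neutrophil-like cells, where the nucleolar Npm1 had 75.8 CPM against 1234 CPM in T cell-like cells, and Fbl, the rRNA methyltransferase, 8.82 against 145 CPM. Of 11 regulators of ribosomal protein mRNA translation 0 were higher and 3 lower (median -0.36). Eif4ebp1, a target of mTOR, had 187 CPM in monocyte-like and 2.43 CPM in ependymal-like cells. Of 7 p53 targets 2 were higher and 2 lower (median 0.31), and Cdkn1a had 1754 CPM in endothelial-like and 15.7 CPM in erythroid-like cells. Of 78 mitochondrial ribosomal protein genes 7 were higher and 2 lower (median 0.09). Beside these counts 11.4% of all genes were higher and 36.6% lower, so the mitochondrial genes' share higher was near the background. Their share lower was below it, and their median lay above that of all genes (-0.38). In endothelial-like cells at most 1 gene of any list passed 1.5-fold in either direction in the transgene comparison.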

How the data were processed

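UMI counts per gene and cell barcode were used as the authors deposited them; per the file headers they were made with Cell Ranger 6.0.1, and per the submitters' processing notes the genome was mm10. The matrices hold the barcodes the authors kept, and nothing in the sources used here states further filters. Cells with at least 500 UMIs, 200 genes and at most 15% mitochondrial UMIs were kept after removal of predicted doublets (scrublet, expected rate 6%, 44 to 92 per library). They were clustered without batch integration on 2000 variable genes without ribosomal protein genes, 30 principal components and 15 neighbours (Leiden, resolution 1.0; scanpy 1.11.5, igraph 0.11.9, Python 3.11.15). Clusters were named from fixed marker lists with at least 3 detected markers and, among 10 leading genes, not fewer of their own markers than of any other class. Mixed and unnamed clusters stayed out of named classes.

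UMIs were summed per class and library and scaled to CPM. Ratios had 0.5 counts added, and members needed 20 UMIs in both libraries together. In the comparisons by coding or transcript length, members and other genes needed 100. Departures used log2(CPM + 5) in classes of at least 50 cells in a library. No test between groups was made, since each group is 1 library. Intervals are exact binomial (Clopper-Pearson) for shares and exact conditional binomial for folds, and were checked on simulated data. UMI counts are molecules, so the intervals cover counting error and no animal-to-animal spread.

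The members, the gene lists and the marker lists were chosen with earlier results of these data known. Members were named if among the 5 highest or lowest in CPM, departing from the family, a paralog, among the 3 highest or lowest ratios less the family median in macrophage-like or endothelial-like cells, next to the limit of 1000 UMIs, of the stalk, Rpsa, Rps27a or X-linked; for each list up to 4 genes with the largest ratio between classes; and for Rpl22l1 and Rps27l the 3 most alike members. Other members named were chosen after their values were seen. Gene positions and coding and transcript lengths are from the GENCODE annotation of GRCm38, and start windows are from RefSeq, GRCm38.p6. Values of some genes that these rules name are not reported here.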

Additional observations from a re-analysis of the deposited data

How the results depend on the processing

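No paired analysis was possible because each group is 1 library. In macrophage-like cells the members' median log2 ratio kept its sign in all alternatives run (12 for the transgene, 11 for the library labelled CD8 KO and 12 for 33 weeks); in the smaller classes and endothelial-like cells it did so in 58 of 64, 53 of 56 and 68 of 72. The transgene median was 0.6182 with at least 1000 UMIs per cell, 0.7057 with at most 5% mitochondrial UMIs, 0.5882 in female cells, 0.6626 without the cluster of lowest UMIs and 1.046 after TMM scaling; the number of members higher was 78 after TMM scaling, 76 at the smaller fold tried and 5 at a fold of 2, and the number lower was 0 after TMM scaling and 0 at a fold of 2. For the library labelled CD8 KO the median was -0.04761 with at most 5% mitochondrial UMIs, -0.04448 with doublets kept, -0.03849 at Leiden resolution 2.0, -0.04499 without the cluster of lowest UMIs and -0.06916 after TMM scaling. For 33 weeks it was -0.0118 with at most 5% mitochondrial UMIs, -0.07701 in female cells and -0.02725 after TMM scaling. Macrophage-like shares in P301S neg, P301S hom (30, then 33 weeks old) and P301S hom CD8 KO were 8.641%, 14.29%, 14% and 13.82% with at most 5% mitochondrial UMIs, 9.675%, 14.93%, 14.57% and 14.49% without mitochondrial UMIs in the total, and 8.964%, 14.34%, 14% and 13.9% without the cluster of lowest UMIs. At resolution 2.0 the 3 transgenic libraries gave 14.45%, 14.13% and 14.08%. Single shifts were 9.3% in P301S neg with at least 1000 UMIs, 14.11% at 33 weeks without haemoglobin UMIs and 13.99% in the library labelled CD8 KO with doublets kept. Female cells gave 14.27% and 13.43% in P301S hom at 30 and 33 weeks, and male cells 8.645%, 14.42% and 13.96% in P301S neg, the 33-week library and P301S hom CD8 KO. Departing pairs of member and class were 4 with at least 1000 UMIs and 4 with ribosomal protein genes allowed in the clustering, both adding Rpl12 and Rps9 in neutrophil-like cells, and 37 at a departure of 0.5. In the clustering that allowed ribosomal protein genes, 0 of them were among the variable genes used. With at most 5% mitochondrial UMIs no ependymal-like class of at least 50 cells was found in enough libraries, so Rpl22l1 had no value there. The cause of these changes was not tested, and under the alternatives the share of all genes was not counted beside the counts of members. Leaving out the cluster of lowest UMIs, and leaving out cells whose barcode is in another library, were chosen after seeing the data. Depth limits the T cell-like class (36 to 75 cells), where single members rest on few UMIs.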
